A study of Mus musculus with 3 samples.

Results

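The stretch of mouse chromosome 4 that holds the neighbouring genes Tnfrsf4 and Tnfrsf18 carried 6 BACH2 peaks and 10 JunD peaks in induced regulatory T cells. The window ran from 155360000 to 155420000 in the mm9 build (60 kb), and every peak that touched it by at least 1 bp in the deposited lists was taken, which gave 16 of 14370 peaks in all. The peaks were thus chosen from the measured lists themselves, so their number in the window is a description and was not tested. The donors were C57BL/6 mice, wild type, between 8 and 12 weeks old, whose sorted spleen CD4+ T cells were activated for 4 days on anti-CD3ε and anti-CD28 with TGF-β. Chromatin immunoprecipitation followed by sequencing (ChIP-seq), which recovers the DNA crosslinked to a protein, was done once for BACH2 and once for JunD, and the remaining library was the input. The 3 libraries share strain, genotype, tissue, age range and culture, and the labels do not say how many mice were pooled. Each factor therefore had 1 library and no replicate, and no value below has an error from replicates. The lists hold no read counts, so the depth is unknown, and they hold no expression by which the cell type could be checked.

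Tnfrsf4 encodes OX40 and Tnfrsf18 encodes GITR, members of the tumour necrosis factor receptor superfamily. Both sit on the T cell surface, bind ligands of the tumour necrosis factor family carried by antigen-presenting cells (OX40 ligand and GITR ligand), and signal through TRAF adaptor proteins to NF-κB. GITR is abundant on regulatory T cells at rest and OX40 rises on T cells after activation, and both receptors are known for costimulating effector T cells and for modulating regulatory T cells. BACH2 is a basic leucine zipper repressor that pairs with small MAF proteins, and JunD belongs to the Jun proteins that form the AP-1 activator complex. Both recognise AP-1-like DNA, so they can meet at the same sites.

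The genes were identified by the window, and no mm9 annotation was used, so no peak is assigned to a promoter, exon or intron. A RefSeq gene table of another build, GRCm38.p6, was used for gene order only. In that order Sdf4 is followed by Tnfrsf4, then by a long noncoding RNA gene (Gm16008) and a small nuclear RNA gene (Gm25982), then by Tnfrsf18 and Ttll10. The RefSeq promoters of both receptor genes are shown because they lie at the transcript starts of the genes that the window is named for. Each has 300 bases, 250 before the transcript start in lower case and the first 50 transcribed bases in capitals. Both are on the plus strand of GRCm38.p6, at chr4:156013445-156013744 for Tnfrsf4 and chr4:156026072-156026371 for Tnfrsf18. These positions are not comparable with the mm9 positions of the peaks.
Tnfrsf4: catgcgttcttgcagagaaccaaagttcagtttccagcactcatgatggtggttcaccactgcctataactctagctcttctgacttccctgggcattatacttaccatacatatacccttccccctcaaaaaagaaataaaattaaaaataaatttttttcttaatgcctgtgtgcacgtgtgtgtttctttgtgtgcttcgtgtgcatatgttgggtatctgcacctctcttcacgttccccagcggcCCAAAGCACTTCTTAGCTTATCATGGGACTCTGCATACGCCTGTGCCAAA
Tnfrsf18: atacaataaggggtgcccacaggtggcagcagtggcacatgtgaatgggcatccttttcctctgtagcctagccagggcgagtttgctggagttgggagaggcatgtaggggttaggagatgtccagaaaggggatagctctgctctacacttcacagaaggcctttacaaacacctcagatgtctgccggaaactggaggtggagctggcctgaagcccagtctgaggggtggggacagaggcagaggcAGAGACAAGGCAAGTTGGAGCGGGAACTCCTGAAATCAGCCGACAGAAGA
Both strands were searched for the AP-1 core TGAGTCA, its looser form TGANTCA (which contains it) and the CRE-type site TGACGTCA. None of these letters occurred in either window. Among all 32851 promoters of the table, 5.2% held TGAGTCA, 7.81% TGANTCA and 1.79% TGACGTCA, so most promoters of this length lack them too. The search concerns these 300 bases only. Whether either promoter lies under a peak is unknown, so the search was not read as a result about the sequence under the peaks.

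BACH2 peaks are numbered here from low to high coordinate, all on chromosome 4 of mm9. Each has the authors' fold enrichment over the peak caller's background and a −log10 q-value, and it was ranked by −log10 q among all 9133 BACH2 peaks, rank 1 being the strongest. BACH2 peak 1 (155382448 to 155382787, 340 bp wide) was the strongest of the window, with a fold enrichment of 7.19, a −log10 q of 21.1 and rank 2576.5. BACH2 peak 2 (155384486 to 155384777, 292 bp) had 6.39-fold enrichment, a −log10 q of 12.1 and rank 4476. BACH2 peak 3 (155387767 to 155387997, 231 bp) was the weakest and the narrowest, with 3.26-fold enrichment, a −log10 q of 4.42 and rank 8362.5. These first peaks lay close together, with 1698 bp between peaks 1 and 2 and 2989 bp between peaks 2 and 3.

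After a gap of 7130 bp came BACH2 peak 4 (155395128 to 155395822), the widest at 695 bp, with 6.31-fold enrichment, a −log10 q of 19.1 and rank 2866.5. It ranked 222 in the BACH2 list by width, 2.43% of the way down. BACH2 peak 5 (155396316 to 155396602, 287 bp) followed only 493 bp further on, and BACH2 peak 6 (155406190 to 155406478, 289 bp) stood 9587 bp beyond it. Peaks 5 and 6 carried the same values in the deposited list, 4.72-fold enrichment and a −log10 q of 14.8, and so shared the rank 3701.5; 4 peaks of the whole list had that pair of fold and p-value. The BACH2 peaks of the window were thus of middle strength, with none in the strongest quintile of the list and 5 of 6 above its median −log10 q of 11.8.

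Fold and −log10 q placed some of these peaks differently. The median position of the 6 peaks was 40.5% of the way down the list by −log10 q and 55.4% by fold enrichment. By fold, peaks 5 and 6 were 69.1% of the way down, below the list's median fold of 5.75, while their −log10 q lay above the list's median. That combination occurred in 2 of the 6 members and in 588 of the 9133 peaks (6.44%). Peak 3 was near the bottom on both scales, 94.4% of the way down by fold and 91.6% by −log10 q.

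**Figure D1:**
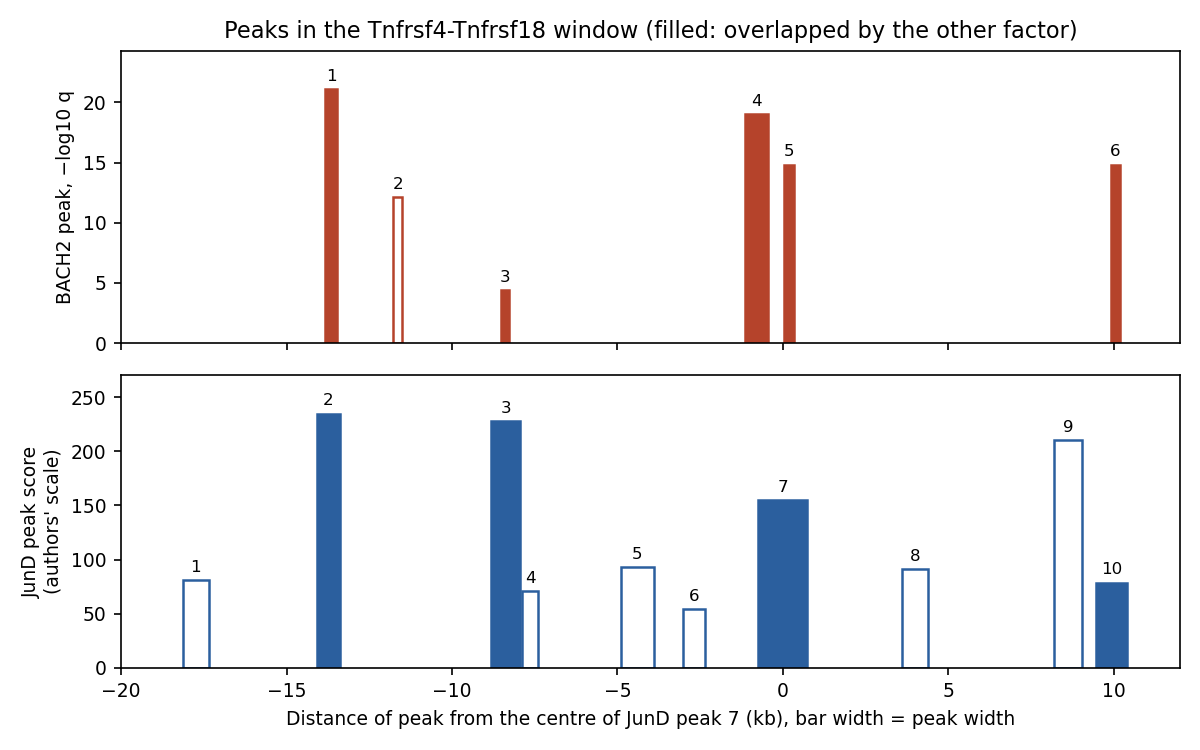
Peaks of the Tnfrsf4 and Tnfrsf18 window along the chromosome, as distance in kb from the centre of JunD peak 7. Upper bars give the −log10 q of the 6 BACH2 peaks and lower bars the authors' score of the 10 JunD peaks, each bar as wide as its peak and filled where a peak of the other factor overlaps it. All but BACH2 peak 2 are filled above, and JunD peaks 2, 3, 7 and 10 are filled below.

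JunD peaks are numbered in the same way, and each has a single score from the authors, whose scale is not stated and whose lowest value in the list is 50. They were ranked by score among all 5237 JunD peaks. JunD peak 2 (155382189 to 155382890, 702 bp) had the highest score of the window, 234.9, at rank 393. JunD peak 3 (155387466 to 155388344, 879 bp) had a score of 228.0 and rank 417. JunD peak 9 (155404488 to 155405333, 846 bp) had a score of 210.2 and rank 499. JunD peak 7 (155395531 to 155397017), the widest at 1487 bp, had a score of 154.7 and rank 883. These 4 were in the strongest quintile of the list. Peaks 2 and 3 were neighbours, and weaker JunD peaks lay between peaks 3, 7 and 9.

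The other 6 JunD peaks were weaker. JunD peak 5 (155391374 to 155392393, 1020 bp) scored 93.4 at rank 2145. JunD peak 8 (155399889 to 155400667, 779 bp) scored 91.5 at rank 2224. JunD peak 1 (155378135 to 155378919, 785 bp), the lowest in coordinate, scored 80.8 at rank 2687. With the 4 above, JunD peaks 5 and 8 made 6 of 10 that exceeded the list's median score of 81.6, and peak 1 fell just below it. JunD peak 10 (155405755 to 155406673, 919 bp) scored 78.8 at rank 2779. JunD peak 4 (155388382 to 155388884, 503 bp) scored 71.3 at rank 3217.5. JunD peak 6 (155393259 to 155393933, 675 bp) had the lowest score, 54.1, at rank 4742.

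JunD peaks here were broad for their list. Their median width was 815.5 bp against 553 bp over all JunD peaks, and 9 of 10 were wider than the list's median (background 49.8%), peak 4 being the exception. Peaks 5 and 7 exceeded 1 kb, a width reached by 9.26% of the list. BACH2 peaks were closer to their list, with a median of 290.5 bp against 267 bp, and 5 of 6 were wider than the list's median (background 49.9%). JunD peaks covered 8595 bp of the window (14.3%) and BACH2 peaks 2134 bp (3.56%).

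**Figure D2:**
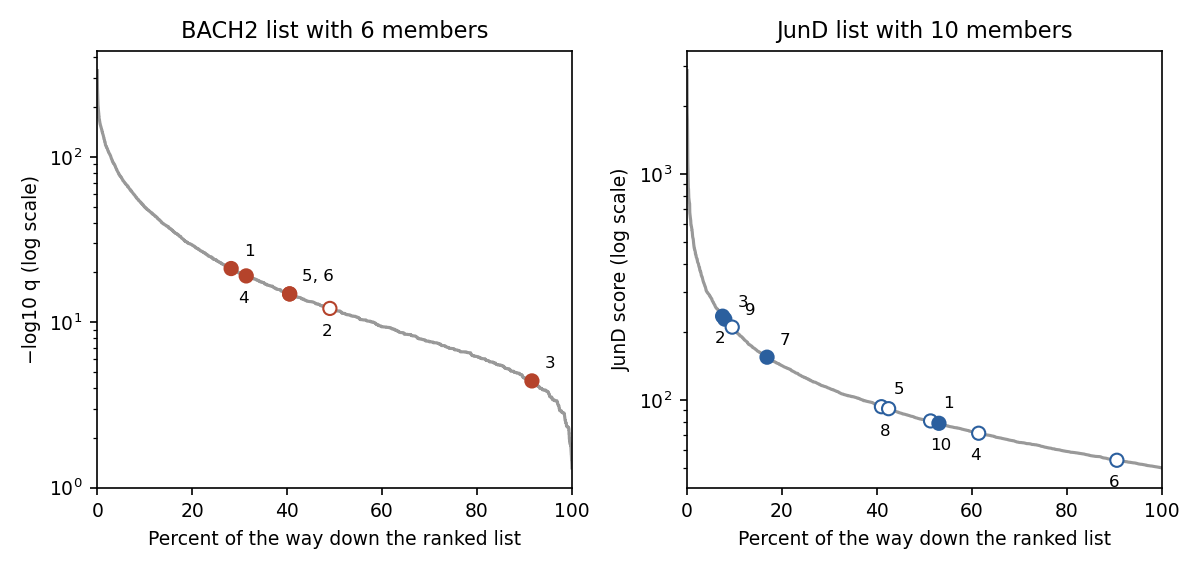
Rank of the window's peaks within their own lists. The grey line gives −log10 q of all BACH2 peaks (left) or the score of all JunD peaks (right), both on a log axis, against the percent of the way down the list. Numbered points are the members, filled where the other factor overlaps. JunD peaks 2, 3, 9 and 7 sit in the strongest quintile, whereas the strongest BACH2 member is 28.2% of the way down.

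Of the 6 BACH2 peaks, 5 met a JunD peak by at least 1 bp, against 29.3% of the whole BACH2 list. Of the 10 JunD peaks, 4 met BACH2, against 48.8% of the whole JunD list. The JunD share was near that of its whole list. The choice of window fixed both peak sets, and with neighbouring peaks of single libraries these shares were not tested. They also depended on the overlap required. At least 50% of the peak's own width was covered in 4 BACH2 peaks (28.8% over the list) and in 0 JunD peaks (27.0% over the list), since BACH2 peak 1 covered 48.4% of JunD peak 2, the most of any. A BACH2 summit lay within 100 bp of a JunD centre for 3 BACH2 peaks (20.5% over the list) and 3 JunD peaks (35.8%).

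BACH2 peak 1 lay wholly inside JunD peak 2, the strongest peak of each factor in the window, and its summit was 86.5 bp from the JunD centre. BACH2 peak 3 lay wholly inside JunD peak 3, with 60 bp between summit and centre. This pair joined the weakest BACH2 peak of the window to its second-highest JunD score. The strongest quintile of the JunD list held 1048 peaks, of which 711 met BACH2, and for 94 of those 711 (13.2%) the strongest overlapping BACH2 peak was, as here, in the weakest quintile of its list. BACH2 peak 6 lay wholly inside JunD peak 10, with 82 bp between summit and centre, and that JunD peak was 53.1% of the way down its list.

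JunD peak 7 held a pair of BACH2 peaks, whereas 110 of the 2557 overlapped JunD peaks (4.30%) held 2 or more in the whole list. BACH2 peak 5 lay wholly inside it, with its summit 196 bp above the JunD centre. BACH2 peak 4 was covered for 42.0% of its width and extended 403 bp beyond the lower edge of the JunD peak. Its summit lay 94 bp inside that edge and 649 bp below the centre, a distance reached in 38 of the 2677 overlapping pairs of the lists (1.42%). Both shares take JunD peaks of all widths together. JunD peak 7 ranked 146 by width, 2.79% of the way down, and a wide peak leaves more room for both. No share among JunD peaks of similar width was computed. The summits of BACH2 peaks 4 and 5 were 845 bp apart, on opposite sides of the JunD centre. The 5 pairs of the window had a median summit-to-centre distance of 86.5 bp, against 55 bp over all pairs. The JunD list gives no summits, so the centre need not be the point of highest signal in a peak this wide.

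The remaining peaks had no partner. BACH2 peak 2, with a −log10 q of 12.1, lay 1595 bp from the edge of the nearest JunD peak, number 2. JunD peak 9 was the strongest JunD peak without BACH2, and it ranked 116 of the 2680 such peaks in the list (4.33% of the way down). Its edge was 856 bp from BACH2 peak 6. JunD peak 10, which did overlap BACH2 peak 6, stood only 421 bp beyond peak 9 and had the lower score, 78.8 against 210.2. JunD peak 4 was 384 bp from BACH2 peak 3 and 37 bp from JunD peak 3, and 43 of the 5217 gaps between neighbouring JunD peaks (0.824%) were as small as that. JunD peaks 6, 5, 8 and 1 were between 1194 and 3528 bp from the nearest BACH2 peak.

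Overlap in the window did not follow a single order of strength. The overlapped JunD peaks had a median score of 191.4 and the others 86.1, but the highest score among the others, 210.2 at peak 9, exceeded that of overlapped peaks 7 and 10. The overlapped BACH2 peaks had a median −log10 q of 14.8, and the single peak without JunD had 12.1, which was above that of overlapped peak 3. The groups overlapped in both lists, and the numbers of peaks are too small to describe more.

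All 16 peaks fell within 28.5 kb, from the start of JunD peak 1 to the end of JunD peak 10, and the rest of the window was empty. The next BACH2 peaks outside it were at 155268397 to 155268737 (9.53-fold, −log10 q 24.1) and at 155629173 to 155629437 (5.27-fold, −log10 q 7.62), which were 113.7 and 222.7 kb from the nearest BACH2 member. The next JunD peak below lay at 155186470 to 155186798 (score 63.7), 191.3 kb away. JunD peak 10 was the last JunD peak of the chromosome, and 1 BACH2 peak lay beyond the window. None of these outside peaks overlapped a peak of the other list. Within 1 Mb below the window there were 6 BACH2 and 6 JunD peaks, and the 16 members were packed into a far shorter stretch.

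The window was then set beside the rest of the genome. When all chromosomes were divided into 43815 tiles of 60 kb up to the last peak of each, 12.6% of tiles held a BACH2 peak and 8.17% a JunD peak. At least 6 BACH2 peaks were found in 105 tiles (0.240%) and at least 10 JunD peaks in 3 (0.00685%). Both counts were reached in 2 tiles, on chromosome 11 (99000001 to 99060000, with 7 BACH2 and 10 JunD peaks) and chromosome 2 (11520001 to 11580000, with 10 and 10). Tiles shifted by 30 kb gave 6 tiles (0.0137%) with at least 10 JunD peaks and 5 with both counts. A shifted tile held every peak of the window, so the window itself is among the 6 and the 5. These small numbers thus depended on where the tiles began. The window was placed around its peaks whereas tile edges cut through groups of peaks, so the window is favoured in this comparison. The group of the window was itself cut by the unshifted tiles but not by the shifted ones.

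**Figure D3:**
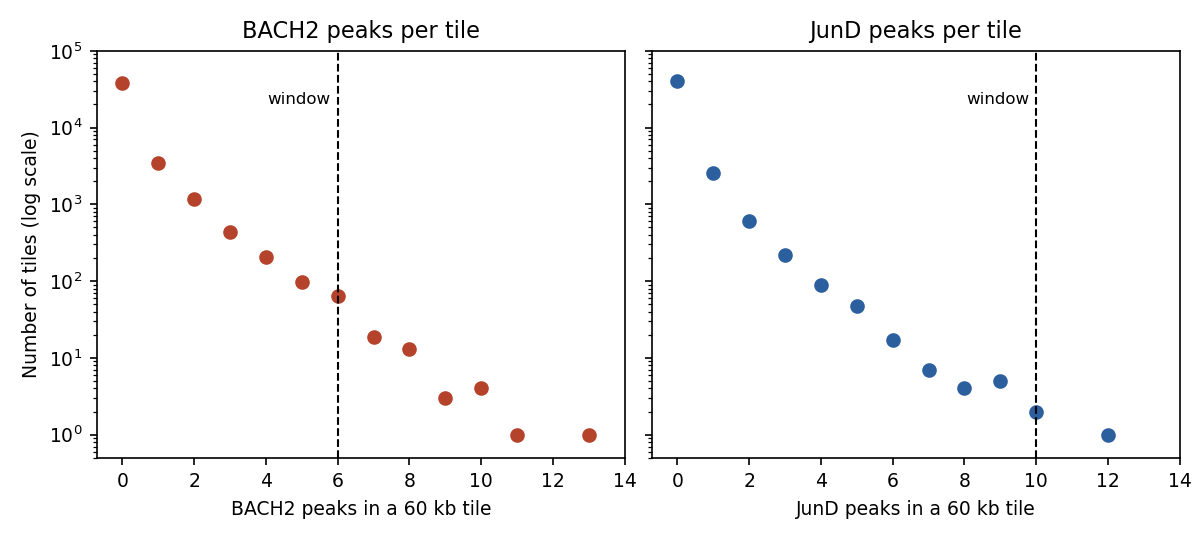
Number of 60 kb tiles (log axis) that hold a given number of BACH2 peaks (left) or JunD peaks (right). The dashed line marks the Tnfrsf4 and Tnfrsf18 window, with 6 BACH2 and 10 JunD peaks. Points at or beyond the line stand for 105 tiles on the left and 3 on the right.

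A grouping that does not depend on tile edges joined peaks of 1 list that were at most 10 kb apart. The 10 JunD peaks formed 1 group, and the 6 BACH2 peaks formed 1 group of 24.0 kb that had 9 JunD peaks along it. The gap of 9587 bp before BACH2 peak 6 was only just under the limit of 10 kb. A slightly smaller limit would leave BACH2 peak 6 out of its group, and no other limit was tried. Of 4084 JunD groups, 5 held 10 or more peaks and 3 were larger than this one. The group in the window was the shortest of the 5, at 28.5 kb, the others spanning 36.3 to 55.8 kb. Its density was 0.35 JunD peaks per kb, against at most 0.30 in the other 4. Some groups of fewer JunD peaks were denser, such as 7 peaks in 17.3 kb on chromosome 11 (53576413 to 53593681). Another had 6 peaks in 8.73 kb on chromosome 2 (121973072 to 121981804). The larger or equal groups lay on chromosome 13 (23622263 to 23678059, 13 peaks), chromosome 15 (66609700 to 66645992, 11), chromosome 2 (11538247 to 11585966, 11) and chromosome 11 (99003401 to 99041717, 10). BACH2 overlapped 10, 3, 8 and 5 of their JunD peaks, against 4 in the window.

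**Figure D4:**
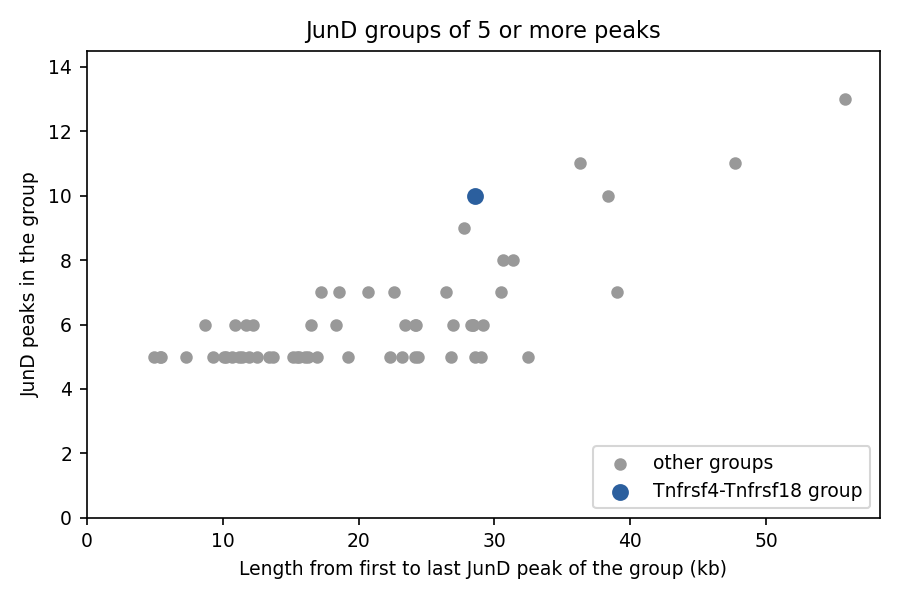
JunD groups of 5 or more peaks, made by joining peaks at most 10 kb apart, with the length of the group in kb and its number of peaks. The blue point is the Tnfrsf4 and Tnfrsf18 group, with 10 peaks in 28.5 kb. The 4 grey points at or above its height lie further right.

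Among BACH2 groups the group in the window was less extreme in number. Of 6690 BACH2 groups, 46 held 6 or more peaks and 22 were larger. The share of peaks overlapped by JunD in these 46 groups ranged from 0% to 85.7% with a median of 46.4%. The share in the window, 83.3%, was reached or exceeded in 8 of the 46, this group included. As many as 9 JunD peaks along the group were found in 3 of the 46, this group included, and the median was 3. These counts describe 1 library of each factor, and they depend on the 10 kb limit, which BACH2 peak 6 met only narrowly.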

How the data were processed

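ChIP-seq of BACH2 and JunD in induced regulatory T cells was analysed from the 2 deposited peak lists, 1 library each; the input library was not analysed here. Per the submitters' processing notes, alignment used Bowtie 0.12.9 and the build mm9 (NCBIM37). The JunD peak names begin with MACS; not given in the sources used here are caller settings, version, control library and pooling. For BACH2 the authors deposited, per peak, a fold enrichment, −log10 of the p-value and of the q-value, and a summit (read from the narrowPeak layout). For JunD they deposited a score of unstated scale. The deposited integer score of BACH2 repeats its −log10 q and was not used. The labels name 2 catalogue numbers for the JunD antibody without saying which was used.

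Positions are counted from 1. Peaks were ranked within each list, ties sharing the mean rank, and called overlapped at 1 bp or more. Every peak touching the window was named. The window, genes and measures were chosen with earlier results of these data known, and nothing was tested for significance. Sites that missed a caller's threshold are absent. Related receptor, ligand and TRAF genes were not described, since no mm9 gene positions were used. Promoters came from RefSeq (GRCm38.p6), and 2 of 2 symbols matched. Overlap counting was checked on simulated peaks, and tile counting on the BACH2 list against a direct count. Python 3.11.15, numpy 2.4.6, pandas 2.3.3, scipy 1.17.1 and matplotlib 3.10.9 were used.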

Additional observations from a re-analysis of the deposited data

How the results depend on the processing

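The window held the same numbers of peaks, 6 BACH2 and 10 JunD, when whole peaks or only summits and centres had to lie inside it and when it was widened or narrowed by 10 kb on each side. Keeping the stronger 50% of each list left 5 BACH2 and 6 JunD peaks. The overlap depended on the rule: 50% of the peak itself gave 4 BACH2 and 0 JunD peaks. Asking for 50% of both peaks gave 0 BACH2 and 0 JunD peaks, which follows from the JunD count of 0 under the rule before. A summit within 100 bp of the centre was found for 3 BACH2 and 3 JunD peaks, and peaks set to 200 bp gave 4 and 4. No share over the whole lists is given for the 200 bp setting or for 50% of both peaks. Those counts are therefore not read as a feature of this window. Tiles shifted by 30 kb gave 0.226% with as many BACH2 and 0.0137% with as many JunD peaks, against 0.240% and 0.00685%. A shifted tile held every peak of the window, so the shifted shares count the window itself. With only tiles that held a peak, 1.59% had as many BACH2 and 0.0455% as many JunD peaks. Ranked by width, the median position was 42.2% of the way down for BACH2 and 17.8% for JunD, against 40.5% and 41.7% by −log10 q and score. Centre to centre, the median distance was 120 bp. No paired analysis was possible because each factor had 1 library, and for the same reason no replicate could be left out. Depth is unknown, so weak sites may be missed.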
